A study of Mus musculus with 8 samples.

Results

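The genes described here are 38 receptor, cytotoxic and checkpoint genes of T cells and natural killer (NK) cells, chosen by symbol and read from mammary tumours. Of these, 36 were measured by at least 1 probe annotated to that symbol alone, with 55 such probes in all, out of 18193 genes and 45037 probes on the array. The other 2, Tigit and Klrb1c, had no such probe and are not analysed here. The samples were 8 mammary tumour samples from female mice, 4 labelled as treated with SKI606 (bosutinib, which blocks tyrosine kinases of the Src and Abl families, given by oral gavage at 100 mg/kg) and 4 labelled as treated with vehicle. All mice in both groups were MMTV-PyMT mice, of the transgenic line FVB/N-Tg(MMTV-PyVT)634Mul/J, in which a mouse mammary tumour virus promoter drives the polyoma middle T antigen in mammary epithelium. The sources used here give no age, treatment length or volume of vehicle. The labels give no list of animals, so the spread behind each p-value is that of the 8 samples and may be partly technical.

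T cells recognise peptide antigens through a receptor whose CD3 and zeta chains carry the tyrosine motifs that Src family kinases phosphorylate. The kinase encoded by Zap70 then binds these motifs and phosphorylates the adaptor LAT. Cytotoxic T cells and NK cells kill by releasing perforin and granzymes from granules, and receptors such as those encoded by Pdcd1, Lag3 and Ctla4 restrain T cells. In mouse mammary tumours such cells are a minority among epithelial cells, fibroblasts and macrophages.

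In the whole tumours, genes of epithelium were bright in both groups, with a mean of log2(signal + 16) over 9 epithelial genes of 10.62 to 11.15 in SKI606 samples and 10.72 to 11.05 in vehicle samples. SKI606 samples 1 and 4 and vehicle sample 3 stood apart by squamous and hair keratin genes, whose mean level over 14 genes was 8.93, 9.03 and 8.13 there, against 5.12 to 5.83 in the other 5 samples. Values without these 3 samples, that is with SKI606 samples 2 and 3 against vehicle samples 1, 2 and 4, are given for the whole list, most roles and some single genes. The medians of the recovered signals were 15 to 16 on the SKI606 arrays and 15 to 23 on the vehicle arrays, with 23 in vehicle sample 3. The ratio of 3′ to 5′ signals of Actb, a measure of RNA integrity, was 1.66 to 3.35 in SKI606 samples and 1.77 to 3.83 in vehicle samples, with 3.83 again in vehicle sample 3. The same ratio for Gapdh was 0.80 to 1.01 in SKI606 samples and 0.86 to 1.06 in vehicle samples, highest in vehicle sample 4. With 8 arrays the precision of each value is limited.

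The T and NK cell genes were dim. After normalization, the median signal of all probes was 16.5. Of the 36 measured members, 7 (Trat1, Cd8b1, Cd6, Cd27, Ctla4, Gzmk and Ifng) lay below that median in all 8 samples, and 3 (Zap70, Thy1 and Il7r) lay below it in none. A mean signal of at least 50 was reached by 2 members, Zap70 and Thy1. Signals are given as normalized signals, and differences as log2 fold changes of log2(signal + 16), with vehicle subtracted from SKI606, ± SE and 4 samples in each group. The added 16 understates the differences of dim genes.

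Groups without overlap were found mainly among the genes of the killing machinery, 4 of the 6 such members. Gzma, Gzmb, Prf1 and Nkg7, which encode 2 granzymes, perforin and a granule membrane protein, had signals that were higher in all 4 SKI606 samples than in any vehicle sample, and so did Cd3g and Cd5 of the T cell surface. No member passed the test, as limma called 0 of 36 at an adjusted p under 0.05, where it called 0 of 18193 genes (0%). At an unadjusted p under 0.05, 10 members were higher in SKI606 samples, against 6.07% of all genes, and 1 member, Cd28, was lower, against 4.31% of all genes. In 6 members every SKI606 value exceeded every vehicle value, against 2.39% of all genes, and in 0 members every SKI606 value was lower, against 2.03% of all genes. A log2 fold change above 0 was found in 28 members, against 47.1% of all genes, with a median over the members of 0.33 and over all genes of -0.019. Without the 3 samples of high keratin signals, 21 of 36 members were above 0, with a median of 0.10. These samples are bulk tissue, in which more T or NK cells and more RNA per such cell cannot be told apart.

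The 6 members whose groups did not overlap are shown with the 250 bases before the start that the RefSeq promoter table gives, because their SKI606 signals all lay above their vehicle signals. The sequences are RefSeq's on GRCm38.p6, written 5′ to 3′ on the strand of the gene, with capitals at matches on either strand to GGAAG, a core of sites of ETS factors, and to TGTGGT, a core of sites of RUNX factors. For Prf1 and Cd5 that start lies inside the gene's annotated span, so that 85 bases of the Prf1 window and 52 bases of the Cd5 window lie within the gene.
Gzma, chr13:113100982-113101231, minus strand: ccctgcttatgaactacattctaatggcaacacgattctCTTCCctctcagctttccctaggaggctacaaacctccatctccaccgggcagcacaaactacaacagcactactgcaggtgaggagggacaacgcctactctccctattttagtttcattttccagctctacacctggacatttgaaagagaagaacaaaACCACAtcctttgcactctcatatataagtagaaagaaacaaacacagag
Gzmb, chr14:56262335-56262584, minus strand: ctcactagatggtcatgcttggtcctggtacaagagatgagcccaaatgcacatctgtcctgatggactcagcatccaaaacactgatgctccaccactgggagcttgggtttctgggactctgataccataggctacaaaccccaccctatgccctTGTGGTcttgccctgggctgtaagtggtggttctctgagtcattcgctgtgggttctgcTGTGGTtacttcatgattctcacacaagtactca
Prf1, chr10:61297586-61297835, plus strand: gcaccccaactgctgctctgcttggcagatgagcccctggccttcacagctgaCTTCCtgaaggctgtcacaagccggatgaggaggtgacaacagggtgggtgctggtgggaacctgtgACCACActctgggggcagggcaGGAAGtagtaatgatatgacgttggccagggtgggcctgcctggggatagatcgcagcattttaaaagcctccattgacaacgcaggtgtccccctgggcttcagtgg
Nkg7, chr7:43436888-43437137, plus strand: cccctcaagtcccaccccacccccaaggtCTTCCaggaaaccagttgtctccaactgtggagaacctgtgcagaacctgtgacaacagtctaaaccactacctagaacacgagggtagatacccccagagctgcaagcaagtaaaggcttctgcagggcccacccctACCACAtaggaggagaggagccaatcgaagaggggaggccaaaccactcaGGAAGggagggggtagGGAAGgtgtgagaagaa
Cd3g, chr9:44980432-44980681, minus strand: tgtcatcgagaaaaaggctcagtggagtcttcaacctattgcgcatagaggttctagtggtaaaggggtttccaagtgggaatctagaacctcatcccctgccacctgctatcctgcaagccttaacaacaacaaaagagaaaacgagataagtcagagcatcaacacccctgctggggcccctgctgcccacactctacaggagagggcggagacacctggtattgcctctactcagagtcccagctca
Cd5, chr19:10738975-10739224, minus strand: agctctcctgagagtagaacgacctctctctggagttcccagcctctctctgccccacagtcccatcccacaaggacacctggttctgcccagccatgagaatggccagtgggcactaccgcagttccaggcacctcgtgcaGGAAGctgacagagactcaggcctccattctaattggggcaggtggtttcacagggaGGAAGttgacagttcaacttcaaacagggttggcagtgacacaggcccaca
A match to GGAAG stood in 4 of the 6 windows, and in 64.1% of 32851 windows of that length in the same table. A match to TGTGGT stood in 4 of the 6, the windows of Gzma, Gzmb, Prf1 and Nkg7, and in 14% of all windows. Of the 28 members with a window, 11 held TGTGGT and 22 held GGAAG in at least 1 of their windows. These counts are per gene and the shares of all windows are per window, so they cannot be compared. Other letters searched on both strands were GGAAAA (NFAT), TCACAC (T-box) and TGANTCA (AP-1), which were found in 1, 2 and 1 of the 6 windows and in 20.4%, 12.3% and 6.75% of all windows. GGAAG and GGAAAA share their first 4 bases. A match describes letters and does not show a bound factor.

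**Figure D1:**
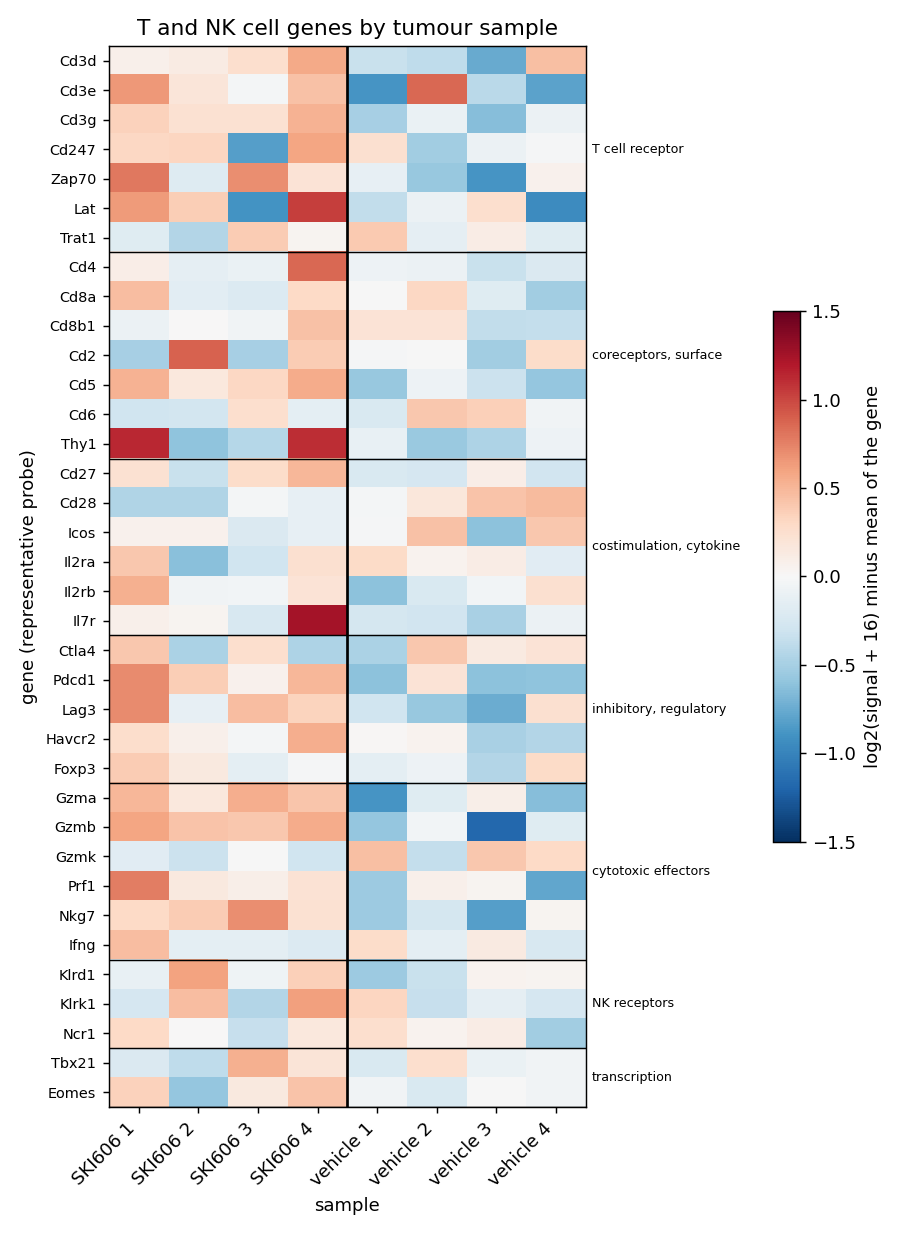
Each row is 1 of the 36 measured genes and each column 1 tumour sample, with SKI606 samples to the left of vehicle samples, and the colour gives log2(signal + 16) minus the mean of the gene. SKI606 samples 1 and 4 were each the highest sample for 12 genes, and vehicle sample 3 was the lowest for 13.

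Among the 7 genes of the T cell receptor complex and its first signalling steps, 6 were above 0 (median 0.57), and none passed the test, with the smallest adjusted p of 0.367 in limma. Cd3g, which encodes the gamma chain of CD3, had signals of 25.5, 22.2, 22 and 30.8 in SKI606 samples 1 to 4, against 7, 14.4, 4.88 and 14.5 in vehicle samples 1 to 4. The groups did not overlap. Its log2 fold change was 0.67 ± 0.17 (adjusted p = 0.367 in limma).

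Zap70, the kinase recruited to the phosphorylated receptor, had signals of 126, 55.8, 117 and 78.9 in SKI606 samples, against 59.4, 39.5, 28.6 and 69.8 in vehicle samples. SKI606 samples 1, 3 and 4 lay above every vehicle sample, and SKI606 sample 2 lay among them. Its difference on the log2 scale was 0.75 ± 0.27 (adjusted p = 0.443 in limma). The 2 other probes of Zap70 gave 0.03 ± 0.23 and 0.39 ± 0.25.

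Cd3e, the epsilon chain of CD3, had signals of 43.2, 26.8, 20.8 and 34.9 in SKI606 samples, against 4.38, 52.6, 12.4 and 5.50 in vehicle samples. Vehicle sample 2 held the highest value of all 8, whereas the other vehicle samples lay below every SKI606 sample. In the fit it stood at 0.62 ± 0.36 (adjusted p = 0.563 in limma), and at 1.01 without vehicle sample 2. Cd3d stood at 0.51 ± 0.25, with vehicle sample 4 at 23.5 above SKI606 samples 1, 2 and 3. Cd3g, Cd3d and Cd3e are neighbours on chromosome 9 of GRCm38.p6, with 1337 bases between Cd3g and Cd3d and 11682 bases between Cd3d and Cd3e.

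The adaptor gene Lat was at 0.57 ± 0.40 with overlapping groups, and its signal was 3 in SKI606 sample 3 against 29.8 to 56.9 in the other SKI606 samples. Lat was at 0.97 without SKI606 sample 3, at 0.32 without SKI606 sample 4, at 0.36 without vehicle sample 4 and at 0.20 without the 3 samples of high keratin signals. Cd247, the zeta chain of the receptor, was at 0.20 ± 0.30 by its brightest probe, while its 3 other probes lay between -0.39 and -0.23. Trat1, which encodes a receptor-associated adaptor, was at -0.096 ± 0.21 and dim throughout. Without the 3 samples of high keratin signals the median of these 7 genes was 0.28, and Cd3g was at 0.46.

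Of the 7 coreceptor and surface glycoprotein genes, 6 were above 0 (median 0.20), with a smallest adjusted p of 0.363 in limma. Cd5, which encodes a scavenger-receptor family protein that dampens receptor signals, had signals of 20.6, 12.4, 15.5 and 21.4 in SKI606 samples, against 1.12, 8.12, 4.25 and 1 in vehicle samples. All SKI606 values lay above all vehicle values, which were close to the bottom of the scale. The fitted log2 fold change was 0.78 ± 0.17 (adjusted p = 0.363 in limma).

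Cd4, the coreceptor for MHC class II, had signals of 7, 3.62, 4.12 and 23 in SKI606 samples, against 4.38, 4.25, 1.12 and 2.50 in vehicle samples. SKI606 sample 4 alone stood out. Its log2 fold change was 0.36 ± 0.22 (adjusted p = 0.581 in limma), and 0.13 without SKI606 sample 4. Without the 3 samples of high keratin signals it was 0.013.

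Cd8a, the alpha chain of the coreceptor for MHC class I, had signals of 44.2, 23.2, 22 and 38 in SKI606 samples, against 27.5, 38.5, 22.8 and 14.5 in vehicle samples. The groups overlapped over most of their range, with a log2 fold change of 0.20 ± 0.22 (adjusted p = 0.761 in limma). Its 5 probes ranged from -0.31 to 0.54, so that they did not share a direction. Of these, 1 had groups that did not overlap, at 0.54 ± 0.17 with signals of 6.12 to 19.6 in SKI606 samples and 1.81 to 5.62 in vehicle samples.

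Cd8b1, the beta chain, was at 0.15 ± 0.20, the adhesion receptor gene Cd2 at 0.13 ± 0.32, and Cd6, a relative of Cd5, at -0.24 ± 0.20. Thy1, which encodes a surface glycoprotein of mouse T cells that other cells such as fibroblasts also carry, was the brightest member. Its signals were 998, 290, 329 and 985 in SKI606 samples, against 412, 299, 321 and 424 in vehicle samples. The high values were those of SKI606 samples 1 and 4, which also had high squamous keratin signals, and their part in the result was not tested. Thy1 stood at 0.61 ± 0.40 over all samples and at -0.26 without the 3 samples of high keratin signals, and the median of these 7 genes was then -0.046. When 1 sample was left out that median ranged from 0.13 without SKI606 sample 4 to 0.34 without vehicle sample 2, and Thy1 was at 0.33 without SKI606 sample 1 and at 0.34 without SKI606 sample 4.

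The 6 costimulatory and cytokine receptor genes showed no common direction, with 3 above 0 and 3 below and a median of 0.11. Cd28, the main costimulatory receptor gene of T cells, was the member with the lowest log2 fold change. Its signals were 1.12, 1.12, 7 and 5.50 in SKI606 samples, against 7, 10.2, 15.5 and 16.5 in vehicle samples. The groups met at 7, and all values lay at or below the median of the array. The log2 fold change was -0.52 ± 0.17 (adjusted p = 0.433 in limma), and its other probe gave 0.04 ± 0.19.

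Il7r, the receptor for the T cell survival factor interleukin-7, had signals of 38.2, 36.9, 27.5 and 106 in SKI606 samples, against 26.6, 26.1, 20.6 and 32.5 in vehicle samples. SKI606 samples 1, 2 and 4 lay above every vehicle sample, with sample 4 far above the rest. Its difference on the log2 scale was 0.56 ± 0.29 (adjusted p = 0.521 in limma), and 0.24 without SKI606 sample 4. Without the 3 samples of high keratin signals it was 0.11. A second probe gave 0.67 ± 0.24. Il2rb, shared by the receptors for interleukin-2 and interleukin-15, was at 0.32 ± 0.21, and Cd27, a receptor of the tumour necrosis factor family, at 0.34 ± 0.19. Icos, a relative of Cd28, was at -0.10 ± 0.23, and Il2ra, the high-affinity interleukin-2 receptor chain, at -0.14 ± 0.23. Without the 3 samples of high keratin signals the median of these 6 genes was -0.12, and when 1 sample was left out it ranged from 0.028 without SKI606 sample 1 to 0.22 without SKI606 sample 2.

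Of the 5 measured inhibitory receptor and regulatory T cell genes, 4 were above 0 (median 0.43), with a smallest adjusted p of 0.389 in limma. Pdcd1, which encodes the checkpoint receptor PD-1, had signals of 30.2, 20.4, 13.4 and 23.8 in SKI606 samples, against 2.38, 16.5, 2.38 and 2.50 in vehicle samples. Vehicle sample 2 alone lay within the range of the SKI606 samples. In the fit it stood at 0.82 ± 0.23 (adjusted p = 0.389 in limma), the second highest of all members.

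Lag3, an inhibitory receptor that binds MHC class II, had signals of 30.2, 10.1, 23 and 19.6 in SKI606 samples, against 7, 3.12, 0.875 and 17.5 in vehicle samples. Vehicle sample 4 lay above SKI606 sample 2, and the other vehicle samples lay below every SKI606 sample. The fitted log2 fold change was 0.69 ± 0.25 (adjusted p = 0.436 in limma). Havcr2, which encodes the inhibitory receptor TIM-3 of T cells and is also found in myeloid cells, was at 0.43 ± 0.19.

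Foxp3, the transcription factor that defines regulatory T cells, had signals of 18.6, 13.4, 8 and 10.1 in SKI606 samples, against 8, 9.12, 3.62 and 16.5 in vehicle samples. The groups overlapped, at a log2 fold change of 0.18 ± 0.19 (adjusted p = 0.741 in limma). Ctla4, an inhibitory receptor of activated and regulatory T cells, was at -0.14 ± 0.26. Without the 3 samples of high keratin signals the median of these 5 genes was 0.15, with Pdcd1 at 0.55, Lag3 at 0.38 and Havcr2 at 0.15.

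**Figure D2:**
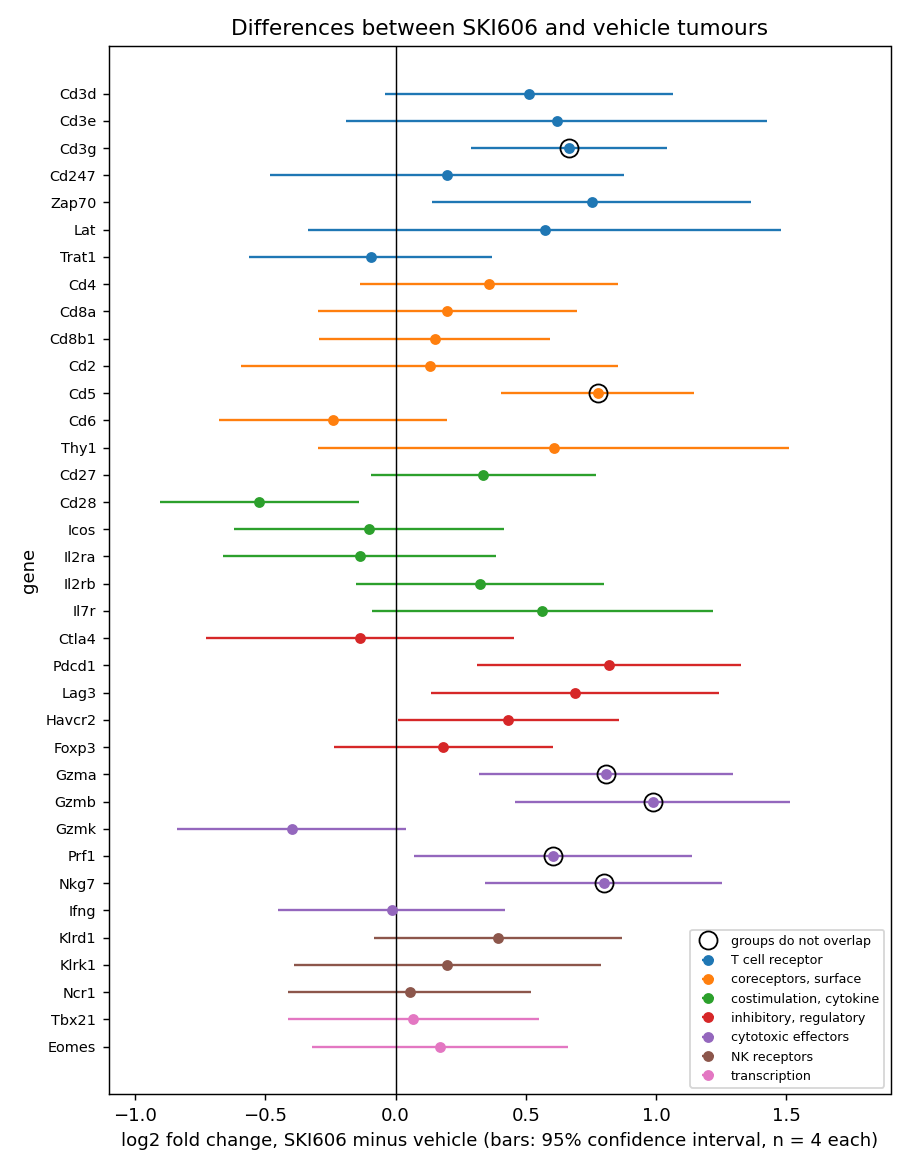
Points give the log2 fold change of each gene, SKI606 minus vehicle, bars its 95% confidence interval from limma, colours the role of the gene, and rings the 6 genes whose groups did not overlap. Gzmb has the highest value, 0.99, and Cd28 the lowest, -0.52.

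The 6 cytotoxic effector genes had the highest median of the 7 roles, 0.70, with 4 above 0 and 2 below. Gzmb, which encodes the granzyme that cleaves caspases in target cells, had signals of 66.5, 57.8, 56.4 and 64.6 in SKI606 samples, against 20.6, 37.5, 8.25 and 32.5 in vehicle samples. The SKI606 values lay close together and all above the vehicle values, at 61.3 ± 5 and 24.7 ± 13.1 (SD, n = 4 each). The log2 fold change was 0.99 ± 0.24 with a 95% confidence interval of 0.46 to 1.51 (adjusted p = 0.367 in limma).

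Nkg7, a granule membrane protein gene of NK cells and cytotoxic T cells, had signals of 42.1, 45.4, 60.4 and 39.5 in SKI606 samples, against 16.5, 23.4, 10.6 and 32.5 in vehicle samples. The groups did not overlap, with vehicle sample 4 the closest to the SKI606 samples. Its difference on the log2 scale was 0.80 ± 0.20 (adjusted p = 0.367 in limma).

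Gzma, which encodes a tryptase of cytotoxic granules, had signals of 34.2, 24, 36.1 and 31.5 in SKI606 samples, against 3.38, 15.5, 21.9 and 7 in vehicle samples. The groups did not overlap, but SKI606 sample 2 and vehicle sample 3 lay close to each other. In the fit it stood at 0.81 ± 0.22 (adjusted p = 0.378 in limma).

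Prf1, the perforin gene, had signals of 41.1, 21.2, 19.8 and 23 in SKI606 samples, against 7, 19.5, 18.6 and 3.62 in vehicle samples. The groups were separated by less than 1 signal unit, between SKI606 sample 3 and vehicle sample 2. The fitted log2 fold change was 0.60 ± 0.24 (adjusted p = 0.458 in limma), and its other probe, whose groups overlapped, gave 0.22 ± 0.20.

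For each of these 4 genes the two-sided exact permutation p over the 70 assignments of samples was 0.0286, the smallest that 4 samples against 4 can give. Any gene whose groups do not overlap has this value, so it only restates the lack of overlap. Such groups were found in 4.42% of all genes. Without the 3 samples of high keratin signals Gzma was at 0.92, Nkg7 at 0.79, Gzmb at 0.68 and Prf1 at 0.53, and the median of the 6 effector genes was 0.61. Gzmk and Ifng did not share this pattern. Gzmk, a granzyme gene of early effector and memory T cells, had signals of 4.50, 2.38, 7 and 2.75 in SKI606 samples, against 15.5, 2, 14.5 and 12.4 in vehicle samples. It was at -0.40 ± 0.20 (adjusted p = 0.506 in limma), in the opposite direction to its neighbour Gzma, which lies 70648 bases away on chromosome 13. Ifng, which encodes interferon gamma, had signals of 10.2, 1.12, 1.12 and 0.500 in SKI606 samples, against 7, 1.12, 4.88 and 0.125 in vehicle samples. It lay near the bottom of the scale in both groups, at -0.015 ± 0.19 (adjusted p = 0.983 in limma), so that a difference was not detectable at this signal.

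**Figure D3:**
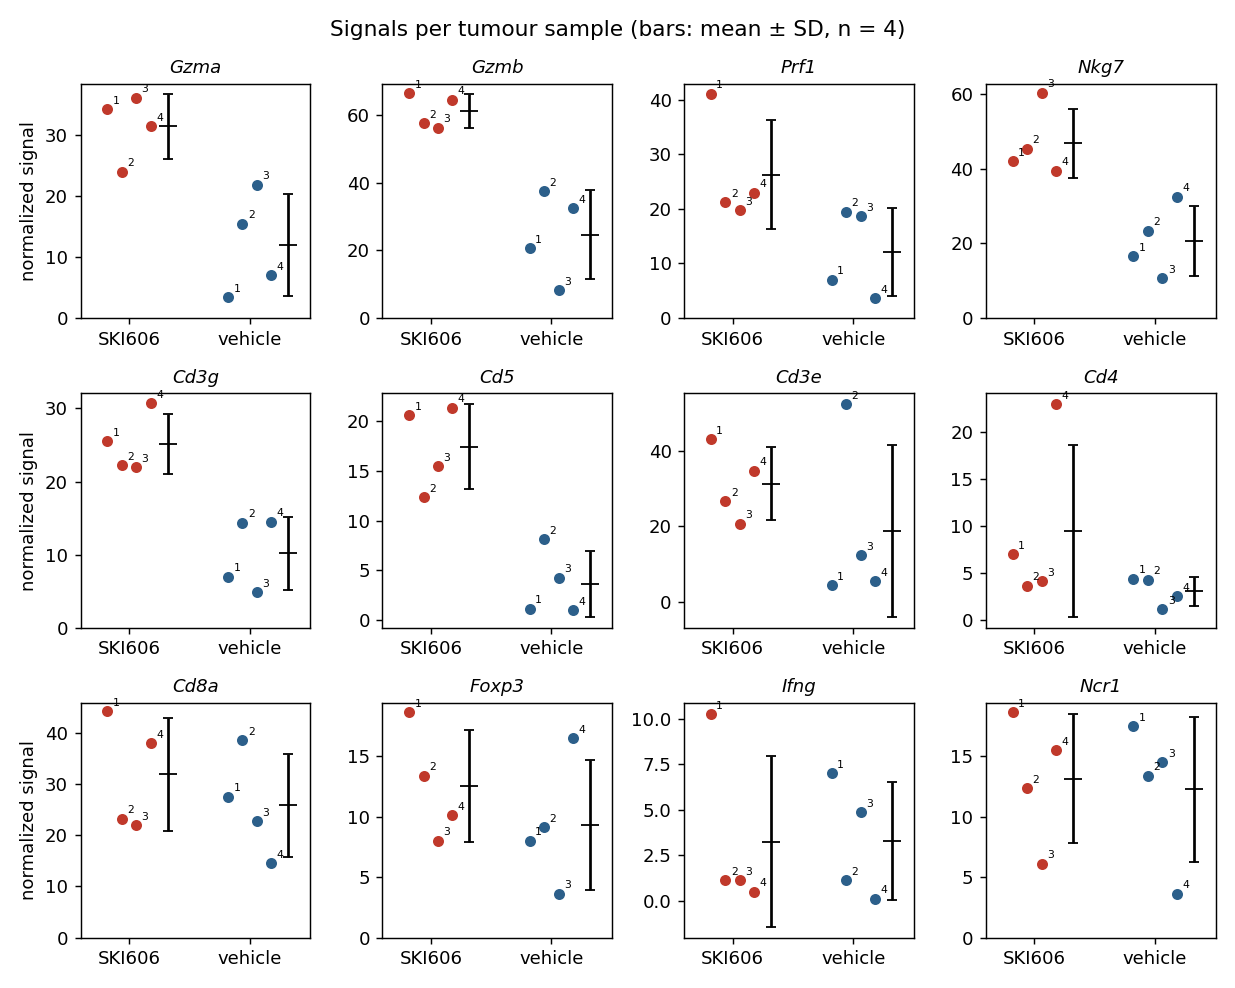
Each panel gives the normalized signal of 1 gene in the 4 SKI606 samples and the 4 vehicle samples, with sample numbers beside the points and the mean ± SD of each group (n = 4). Gzma, Gzmb, Prf1, Nkg7, Cd3g and Cd5 show no overlap of the groups, while Cd3e, Cd4, Cd8a, Foxp3, Ifng and Ncr1 do.

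All 3 measured NK receptor genes were above 0 (median 0.20), with a smallest adjusted p of 0.533 in limma. That median was 0.026 without SKI606 sample 4, 0.078 without SKI606 sample 2 and 0.38 without SKI606 sample 3. Klrd1, which encodes CD94, had signals of 19.6, 42.2, 20.8 and 33.1 in SKI606 samples, against 10.2, 14.4, 23.9 and 23.5 in vehicle samples. SKI606 samples 2 and 4 lay above every vehicle sample. The log2 fold change was 0.39 ± 0.21 (adjusted p = 0.533 in limma).

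Klrk1, which encodes the activating receptor NKG2D, had signals of 4.50, 17.5, 2 and 21.4 in SKI606 samples, against 14.5, 3.12, 6.25 and 4.50 in vehicle samples. As for Klrd1, its neighbour on chromosome 6, SKI606 samples 2 and 4 were the highest, and the log2 fold change was 0.20 ± 0.26 (adjusted p = 0.801 in limma), and 0.026 without SKI606 sample 4. Ncr1, which encodes the NK-defining receptor NKp46, had signals of 18.6, 12.4, 6.12 and 15.5 in SKI606 samples, against 17.5, 13.4, 14.5 and 3.62 in vehicle samples. Its groups covered almost the same range, at 0.054 ± 0.21 (adjusted p = 0.940 in limma), and it was at -0.099 without the 3 samples of high keratin signals.

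The T-box factors that drive cytotoxic programmes were dim and overlapped between the groups. Eomes had signals of 21.5, 3.62, 16.5 and 23.8 in SKI606 samples, against 12.4, 9.12, 13.4 and 12.4 in vehicle samples, and Tbx21, which encodes T-bet, had 4.50, 2.38, 18.6 and 11.4 in SKI606 samples, against 4.38, 12.4, 6.25 and 7 in vehicle samples. SKI606 sample 2 was the lowest of the 8 for both. The log2 fold changes were 0.17 ± 0.22 for Eomes (adjusted p = 0.797 in limma) and 0.068 ± 0.21 for Tbx21 (adjusted p = 0.928 in limma). A second probe of Eomes gave 0.43 ± 0.19. The median of both genes, 0.12, ranged from 0.025 without SKI606 sample 3 to 0.30 without SKI606 sample 2.

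The samples of a group were not alike over the members. SKI606 samples 1 and 4 were each the highest sample for 12 of 36 members, SKI606 samples 2 and 3 for 2 and 3, and vehicle samples 1 to 4 for 2, 4, 0 and 1. Vehicle sample 3, which had the highest array median and the highest Actb ratio, was the lowest for 13 members, and without it the median over the members was 0.33. Vehicle sample 4 had nearly the same Actb ratio, 3.78, and was the lowest for 6 members. The mean level over the 36 members was 5.31, 5.04, 5.05 and 5.38 in SKI606 samples 1 to 4, against 4.85, 4.98, 4.81 and 4.90 in vehicle samples 1 to 4, on the scale of log2(signal + 16). All SKI606 means were above all vehicle means, with SKI606 samples 2 and 3 near vehicle sample 2. Over the 6 effector genes the level was 5.46, 5.16, 5.32 and 5.21 in SKI606 samples, against 4.75, 4.91, 4.83 and 4.81 in vehicle samples, without the gap between SKI606 samples 1 and 4 and the other SKI606 samples that the whole list showed. Without SKI606 sample 1, 6 members were higher at an unadjusted p under 0.05 in limma, in place of 10. The share over all genes fell too, to 3.96% from 6.07%. Without the 3 samples of high keratin signals the median over the members was 0.10, with 21 of 36 above 0.

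Of the 12 members with more than 1 probe, 6 had probes of both signs. Of all 55 probes, 40 lay above 0. The probes of Il7r, Il2rb, Prf1, Eomes and Zap70 were all above 0 and those of Trat1 all below, whereas those of Cd247, Cd28, Cd4, Cd8a, Icos and Il2ra disagreed in sign. Icos was at -0.10 ± 0.23 by its brightest probe and at 0.43 ± 0.22 and 0.16 ± 0.18 by the others.

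**Figure D4:**
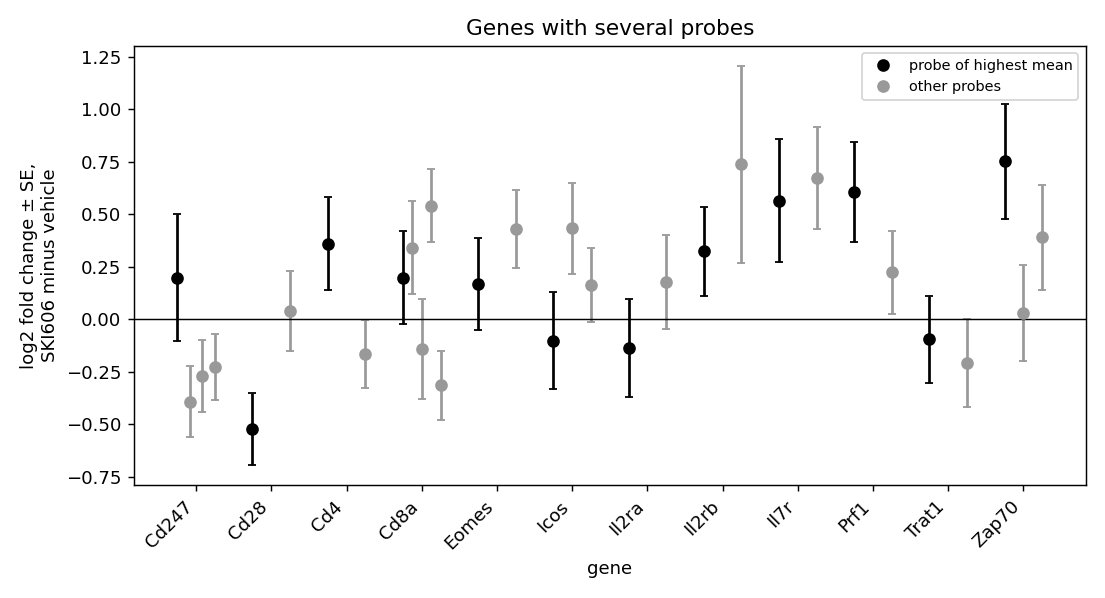
Points give the log2 fold change ± SE, SKI606 minus vehicle (n = 4 each), of every probe of the 12 genes with more than 1 probe, with the probe of highest mean in black and the others in grey. The 5 probes of Cd8a range from -0.31 to 0.54.

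Other genes of T cell receptor signalling, which are not among the 38, were mostly above 0 as well. Of 25 measured genes of 28, 21 were above 0 (median 0.23), against 47.1% of all genes. At an unadjusted p under 0.05 in limma, 6 were higher in SKI606 samples, against 6.07% of all genes, and 0 were called. Every SKI606 value exceeded every vehicle value in 3 of the 25, against 2.39% of all genes. Fyn, which encodes a Src family kinase of T cells that many other cells express too, had signals of 106, 94.6, 97 and 126 in SKI606 samples, against 74.6, 91.4, 42.1 and 66.1 in vehicle samples. Its groups did not overlap, at 0.55 ± 0.20. The same held for the adaptor gene Fyb at 0.53 ± 0.18 and the exchange factor gene Rasgrp1 at 0.40 ± 0.14, while Themis, a gene of T cell selection, was at 0.50 ± 0.18 with overlapping groups.

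Genes of T and NK cell fate and homing had a median of 0.30 over 31 measured of 34, with 26 above 0, against 47.1% of all genes. With 0 of the 31 called in limma, 9 were higher and 1 was lower at an unadjusted p under 0.05. The shares over all genes were 6.07% and 4.31%. Ccl5, a chemokine of cytotoxic cells, was at 0.81 ± 0.20 and Klrg1, a receptor of mature effector cells, at 0.70 ± 0.19, both without overlap of the groups. Gzmc, a further granzyme gene, had signals of 206, 54.6, 40.4 and 186 in SKI606 samples, against 15.5, 44.2, 14.1 and 18.6 in vehicle samples, at 1.62 ± 0.46. Its high values were those of SKI606 samples 1 and 4, while SKI606 samples 2 and 3 lay within or near the vehicle range. Ccr7, the homing receptor of naive T cells and dendritic cells, was at 0.89 ± 0.29.

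Markers of other white blood cells were higher in some of the same samples. Log2 fold changes were above 0 for all 10 pan-leukocyte genes (median 0.90), against 47.1% of all genes. The mean level of these 10 was 7.40 to 8.80 in SKI606 samples and 6.84 to 7.35 in vehicle samples. All 11 measured macrophage genes of 12 were above 0 as well (median 0.59). Their mean level was 8.46 to 9.46 in SKI606 samples and 7.82 to 8.66 in vehicle samples. At an unadjusted p under 0.05 in limma, 9 of the 10 and 3 of the 11 were higher, against 6.07% of all genes, and 0 were called. Groups did not overlap in 1 of the 10 and 2 of the 11, against 2.39% of all genes. The genes of smallest p were Laptm5 at 0.92 ± 0.28 and the macrophage gene Csf1r at 0.71 ± 0.19. Both lists were highest in SKI606 samples 1 and 4 and lowest in vehicle sample 3, and their part in the values of the members was not tested. In SKI606 samples 2 and 3 the macrophage level was 8.58 and 8.46, against 8.66, 8.27 and 8.42 in vehicle samples 1, 2 and 4. In the same samples the pan-leukocyte level was 7.64 and 7.40, against 7.35, 7.11 and 7.13. B cell and follicle genes, which a piece of lymph node would bring, had a median of -0.045 over 12 measured of 14, and their mean level was 5.01 to 5.24 in SKI606 samples and 5.07 to 5.32 in vehicle samples. Of these 12, 5 lay above 0 and 7 below, where 47.1% of all genes lay above 0. At an unadjusted p under 0.05 in limma, 1 of the 12 was higher and 1 lower, against 6.07% and 4.31% of all genes, with 0 called. The 4 of smallest p had both signs, with the adaptor gene Blnk at -0.73 ± 0.24, the B cell transcription factor gene Pax5 at 0.50 ± 0.22, the receptor chain gene Cd79b at 0.40 ± 0.21 and the inhibitory receptor gene Cd22 at 0.33 ± 0.21. Blnk had signals of 228 to 606 over all samples, against 1.12 to 19.6 for Cd79b, and the cells its signal came from were not tested. The 5 measured of 6 plasma cell genes had a median of 0.013. Among them Xbp1 and Sdc1 were bright, at 4313 to 5208 and 672 to 3366, and the cells these signals came from were not tested. The squamous and hair keratin list had a median of 0.89 over 14 genes and the epithelial list of -0.036 over 9, with 0 genes of either at an unadjusted p under 0.05 and 0 called in limma. Of 12 measured of 14 genes for the partners of T and NK receptors, 10 were above 0 (median 0.12), against 47.1% of all genes. Tapbp, which helps to load peptides on MHC class I, was at 0.44 ± 0.15 without overlap of the groups.

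**Figure D5:**
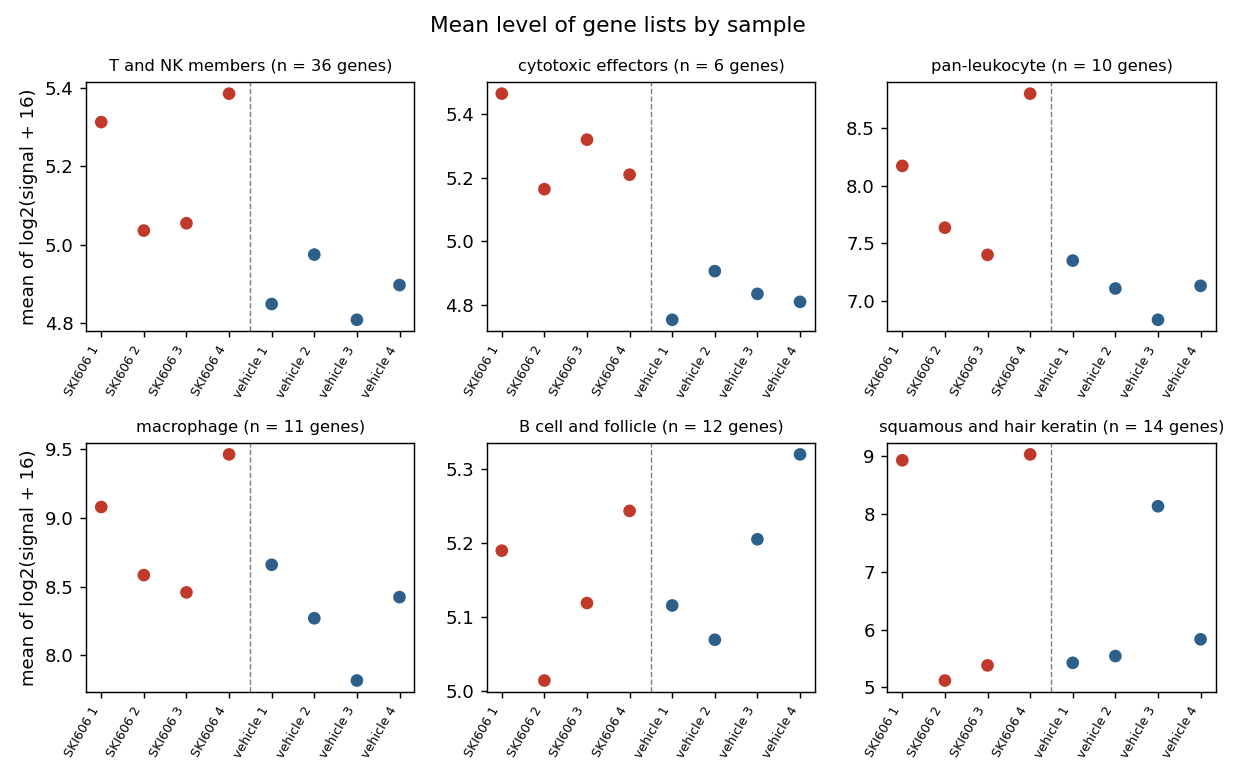
Each panel gives the mean of log2(signal + 16) over the genes of a list in each sample, with SKI606 samples left of the dashed line and vehicle samples right of it, and each panel has its own vertical range. The members, the pan-leukocyte genes and the macrophage genes are highest in SKI606 samples 1 and 4, the B cell list overlaps between the groups, and the squamous list is high in SKI606 samples 1 and 4 and vehicle sample 3.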

How the data were processed

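Gene expression was measured on 1 Affymetrix mouse array for each of 8 tumour samples. The deposited values are linear ratios. The sources used here do not give the authors' normalization, which was worked out from the deposited ratios: each signal was divided by its array's median and then by its probe's median over the arrays, with a constant divisor for probes of median signal under 10 and a lowest value of 0.01. Signals were recovered as the smallest whole numbers giving these ratios, which gave back 45101 of 45101 probes within a relative 0.0001. On 5000 simulated probes 99.7% were recovered exactly. Signals were quantile normalized, 16 was added and log2 was taken. limma 3.58.1 (lmFit and eBayes, R 4.3.3) was fitted to all 45037 probes after removal of 64 control probes and tested on simulated data, with Benjamini-Hochberg adjustment over all 18193 genes and a threshold of 0.05.

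A gene was represented by its probe of highest mean among the 34945 probes with 1 symbol in the platform annotation. The array annotation can be old, and 0 symbols changed through the gene table. No detection calls were used, so low signals are called dim and not absent. The members, the roles and the 9 other lists were chosen with earlier results of these data known. Full values are given for the 2 members of smallest unadjusted p in each role and for Cd3e, Cd4, Cd8a, Foxp3, Prf1, Ifng and Ncr1. Those of Gzma, Gzmk and Thy1 were added after the values were seen, and of each other list up to 4 genes of smallest p are named. Alternatives were median scaling, log2 of the ratios, pseudocounts of 4 and 64, a mean signal of at least 50, the mean of all probes, array weights, the replicate number as a block, leaving out samples, and a threshold of 0.1. No pairing by the replicate numbers 1 to 4 was seen in correlations of same-numbered samples, which cannot exclude a pairing.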

Additional observations from a re-analysis of the deposited data

Results flagged for a closer look

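In 4 of 72 sets of 4 values (36 genes in each group), 1 sample stood far from the 3 others, where chance gives about 1 in 20. SKI606 sample 4 had a Cd8b1 signal of 13.38, against 4.5 to 5.75 in the other SKI606 samples. Vehicle sample 3 had a Cd27 signal of 7, against 1.625 to 2.375 in the other vehicle samples. Vehicle sample 2 had a Pdcd1 signal of 16.5, against 2.375 to 2.5 in the other vehicle samples. SKI606 sample 1 had an Ifng signal of 10.25, against 0.5 to 1.125 in the other SKI606 samples. All of these signals lie at or below the median of the array.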

How the results depend on the processing

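In limma the count of members and of probes called was 0 under all alternatives run. The lowest adjusted p of a member was 0.191, and at an unadjusted p under 0.05 between 1786 and 4923 probes were found where dim probes were kept, and 1693 among probes with a mean signal of at least 50. The median over the members, 0.33, was 0.88 on log2 of the deposited ratios (0.16 over all genes), 0.54 with a pseudocount of 4, 0.12 with a pseudocount of 64, 0.68 over the 2 members with a mean signal of at least 50, of which 0 had groups without overlap, and 0.10 without the 3 samples of high keratin signals. It was 0.22 to 0.42 when 1 sample was left out, and 0.22 without SKI606 sample 4. Median scaling moved the median of all genes to 0.10, at 0.33 for the members. The 6 members without overlap, against 4.42% of all genes, became 6 to 12 when 1 sample was left out. Leaving out a sample cannot lower this count, so it is no check on the 6. The count was 6 without SKI606 sample 1 (6.24% of all genes), 10 without SKI606 sample 2 (10.8%) and 12 without SKI606 sample 3 (10.4%). It was 9 without vehicle sample 2 (7.23%) and 9 without vehicle sample 4 (8.16%).

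The direction held in all alternatives that kept the gene for 23 of 36 members, which include Gzma, Gzmb, Prf1, Nkg7, Cd3g, Cd5, Pdcd1 and Cd28. The groups of Gzma, Gzmb, Prf1, Nkg7, Cd3g and Cd5 did not overlap. Their sign therefore could not reverse when samples were left out or the pseudocount, weights or block changed. The filter at a mean signal of at least 50 kept only Zap70 and Thy1. On log2 of the ratios Cd2 was at -0.060 and Tbx21 at -0.15. With the mean of all probes Cd247 was at -0.17, Icos at 0.17 and Il2ra at 0.020. Without the 3 samples of high keratin signals Cd247 was at -0.15, Cd8a at -0.11, Cd8b1 at -0.046, Thy1 at -0.26, Foxp3 at -0.022, Ncr1 at -0.099 and Eomes at -0.11, and the medians of the coreceptor, costimulatory and transcription factor genes were -0.046, -0.12 and -0.0096. When 1 sample was left out, Cd2 ranged from -0.14 to 0.32, Il2ra from -0.30 to 0.046, Icos from -0.32 to 0.027, Ifng from -0.17 to 0.074, Ncr1 from -0.11 to 0.18, Tbx21 from -0.10 to 0.21 and Trat1 from -0.24 to 0.035. The cause was not tested. With the replicate block the median was 0.33 and 0 members were called, with 10 higher at an unadjusted p under 0.05, against 6.8% of all genes. Same-numbered samples had correlations of their deviations from the group means of -0.0037, 0.13, -0.27 and -0.13, and 0 of 4 correlated best with their own number. Low signals over background limit what can be seen for most members.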
